A study of Homo sapiens with 2 samples.

Results

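The genes described here are the HIF subunits HIF1A, EPAS1 and ARNT, the prolyl hydroxylases EGLN1, EGLN2 and EGLN3, the asparaginyl hydroxylase HIF1AN, and VHL and CUL2 of the ligase that degrades HIF. They were chosen by symbol for their place in oxygen sensing, a set of 9 genes, and 8 of them have a row among the 12014 protein-coding genes listed. EGLN3 has no row and was not analysed here. The cells were ACHN, an established line from a human renal cell carcinoma, made stable under puromycin after lentiviral infection. The ACHN_sh library came from cells with an shRNA against KIAA1429, a scaffold subunit of the m6A methyltransferase complex, and the NC library from cells with a control shRNA. The labels call the ACHN_sh cells a knockout, whereas the study's methods describe a knockdown and give more than 1 shRNA against KIAA1429 without naming the one sequenced. There was 1 library per group, so no difference below has a replicate check and no test was run.

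HIF is a transcription factor made of an oxygen-labile α subunit, encoded by HIF1A or EPAS1, and a stable β subunit, encoded by ARNT. When oxygen is present the EGLN enzymes hydroxylate the α subunit on proline, VHL binds the hydroxylated protein, and a ligase built on CUL2 marks it for the proteasome. Loss of VHL is the hallmark of clear cell renal carcinoma, in which EPAS1 is the main driver, and ACHN is known as a renal line that keeps VHL intact. These steps act on protein, whereas the values here are of mRNA.

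The HIF-binding core is A or G followed by CGTG, and its presence near the start sites shows which of these genes carry the letters that HIF itself reads. RefSeq start regions of GRCh38.p14, 250 bases before to 50 after a start, were at hand for 8 of the 9 genes (12 regions), and VHL is the gene without an entry. Searched on both strands, ACGTG or GCGTG was in 4 of the 12 regions, 1 each of HIF1A, EPAS1, EGLN1 and EGLN2, against 48.4% of the 35116 regions in the table. The stretches with the motif are printed on the strand of the gene, with the motif in capitals.
HIF1A, chr14:61695272-61695351, plus strand: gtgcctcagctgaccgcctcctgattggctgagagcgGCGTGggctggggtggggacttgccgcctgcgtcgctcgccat
EPAS1, chr2:46297253-46297332, plus strand: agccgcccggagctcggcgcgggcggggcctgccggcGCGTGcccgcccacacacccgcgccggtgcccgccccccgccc
EGLN1, chr1:231422288-231422317, minus strand: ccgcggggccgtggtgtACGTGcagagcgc
EGLN2, chr19:40799105-40799184, plus strand: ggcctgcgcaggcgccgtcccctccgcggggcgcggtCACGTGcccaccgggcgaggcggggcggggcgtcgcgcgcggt

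Counted from the RefSeq start site, the motif begins at -204 in HIF1A, at -117 in EPAS1 and at -13 in EGLN1. The EGLN1 stretch lies within an exon that GENCODE release 29 gives to EGLN1, while the other 3 stretches overlap no exon there. In EGLN2 it lies within the palindrome CACGTG at -49, the E-box that MYC with MAX also reads, so ACGTG is present there on both strands. ACGTG alone was in 21.4% of the regions in the table, GCGTG in 36.5% and CACGTG in 7.26%. The regions of ARNT, HIF1AN, CUL2 and EGLN3 hold none of these letters.

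The targeted gene, listed as VIRMA, was at 3.92 FPKM in the NC library and at 3.22 FPKM in the ACHN_sh library. That is 82.1% of the NC level. Its log2 change, computed as given below, was -0.22. The central 95% of the 10702 genes that averaged at least 1 FPKM ran from -0.72 to 0.87. With 1 library per group, this difference cannot be read as the extent of the knockdown. By RT-qPCR and western blot, the study reported significantly lower KIAA1429 mRNA and protein in ACHN cells with the shRNAs. FPKM is a fragment count per length of gene and per size of library. Its sum over all listed genes was 283046 in the NC library and 249409 in the ACHN_sh library, and mitochondrial genes made up 42.2% and 34.6% of these sums. Of 15 renal epithelial markers 14 have a row, among them PAX8 at 64.7 and 104 FPKM and PAX2 at 31.4 and 39.3 FPKM, in the order NC and ACHN_sh. No endothelial marker has a row, and of 4 leukocyte and 4 fibroblast markers 1 each has a row, CD68 at 3.87 and 2.06 FPKM and COL1A1 at 1.08 and 1.62 FPKM. In such bulk samples fewer cells of a type and less RNA per cell cannot be told apart.

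Among the 8 genes the genes for both HIF α subunits were the most abundant, and HIF1A was the gene that differed most between the libraries. HIF1A mRNA was 2.09-fold higher in the ACHN_sh library, EPAS1 mRNA was nearly equal in both (1.03-fold), and ARNT was the only one of the 8 genes that was lower in the ACHN_sh library. Of the hydroxylase and ligase genes, EGLN1, EGLN2 and CUL2 were higher by 1.36-fold to 1.47-fold, while VHL and HIF1AN differed by less than 1.1-fold. Changes are given as the log2 of (FPKM + 1) in the ACHN_sh library over the same in the NC library, which understates the change of low genes. They are read against 10702 genes, those whose FPKM averaged at least 1 over both libraries, whose median change was 0.06.

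**Figure D1:**
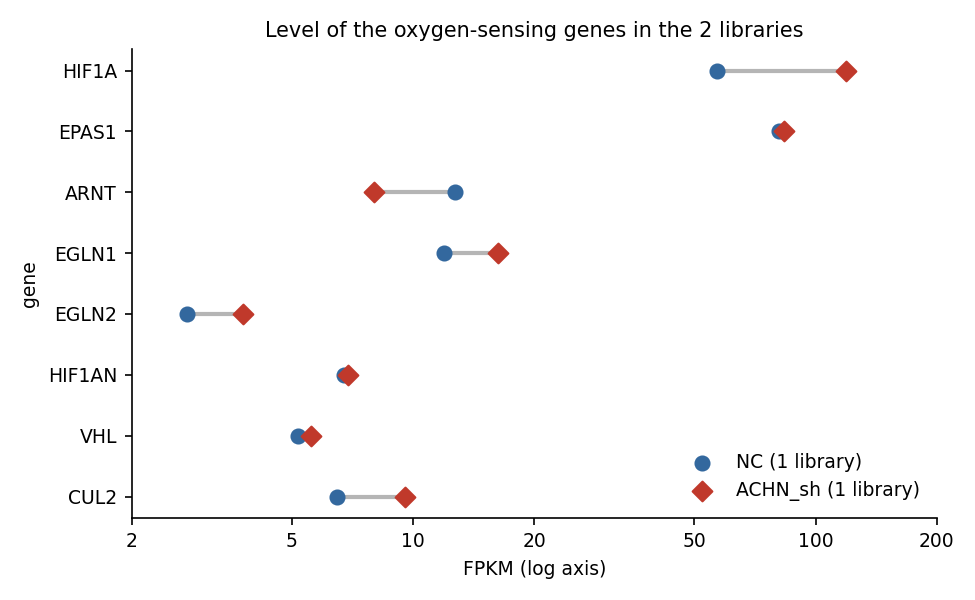
FPKM of the 8 listed genes in the NC library (circles) and the ACHN_sh library (diamonds) on a log axis, 1 library each and therefore without error bars. HIF1A moved from 56.8 to 119 FPKM past EPAS1, which stood at 81.3 and 83.5 FPKM, and ARNT is the gene whose diamond lies to the left.

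HIF1A encodes the α subunit that carries the acute response to low oxygen in most cell types. Its level was 56.8 FPKM in the NC library and 119 FPKM in the ACHN_sh library, a 2.09-fold difference and a log2 change of 1.05. The ACHN_sh value was thus the higher of the pair by 61.9 FPKM, the widest gap in FPKM among the 8 genes. Of all 10702 genes 153 had a higher log2 change, and of the 536 genes in the same of 20 bins by mean level only 5 did. The central 95% of that bin ran from -0.68 to 0.82. HIF1A (ENSG00000100644.16_3) is placed by the files at 62162231 to 62214977 on the plus strand of chromosome 14 (GRCh37, as for all genes here), and no other listed gene overlaps it. In GENCODE release 29 the noncoding genes HIF1A-AS1 and HIF1A-AS2 lie across it on the other strand and AL137129.1 on the same strand. The strand setting of the counting is not given, so reads of these genes and of HIF1A cannot be told apart here.

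EPAS1 encodes the other α subunit, also called HIF-2α, which is prominent in kidney and endothelium. It was at 81.3 FPKM in the NC library and at 83.5 FPKM in the ACHN_sh library, a log2 change of 0.04. The values in the libraries were 1.03-fold apart, and 90.5% of the 10702 genes had a larger change in size. EPAS1 was the most abundant of the 8 genes in the NC library and came after HIF1A in the ACHN_sh library. Within the sum of both α genes, a share that no scaling between libraries can alter, HIF1A made up 41.1% in the NC library and 58.7% in the ACHN_sh library. That sum was 138 FPKM in the NC library and 202 FPKM in the ACHN_sh library. EPAS1 (ENSG00000116016.13_2) lies on chromosome 2 from 46520806 to 46613842 on the plus strand.

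ARNT encodes the β subunit, the obligate partner of both α subunits and of the aryl hydrocarbon receptor. It was at 12.7 FPKM in the NC library and at 8.02 FPKM in the ACHN_sh library, which is 63.1% of the NC level and a log2 change of -0.60. Its change went the other way from that of HIF1A. Of the 10702 genes 412 had a lower change, and of the 535 genes in its bin 14 did, so the value was just inside the central 95% of that bin, which began at -0.62. ARNT (ENSG00000143437.20_2) lies on chromosome 1 from 150782181 to 150849244 on the minus strand and overlaps no other listed gene. ARNT2, a close relative that can also pair with α subunits and was added after its values were seen, was at 4.17 FPKM in the NC library and at 4.99 FPKM in the ACHN_sh library.

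Ratios within a library show the shift between the subunits without any scaling between libraries. HIF1A mRNA exceeded ARNT mRNA 4.47-fold in the NC library and 14.8-fold in the ACHN_sh library. The ratio of EPAS1 to ARNT was 6.39 in the NC library and 10.4 in the ACHN_sh library. Both α genes together stood at 10.9 times ARNT in the NC library and at 25.2 times ARNT in the ACHN_sh library. With ARNT2 added to ARNT, these ratios were 8.18 and 15.5. In both libraries the α mRNAs were therefore in excess of the β mRNA, and by more in the ACHN_sh library. HIF1A against EPAS1 went from 0.698 in the NC library to 1.42 in the ACHN_sh library.

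**Figure D2:**
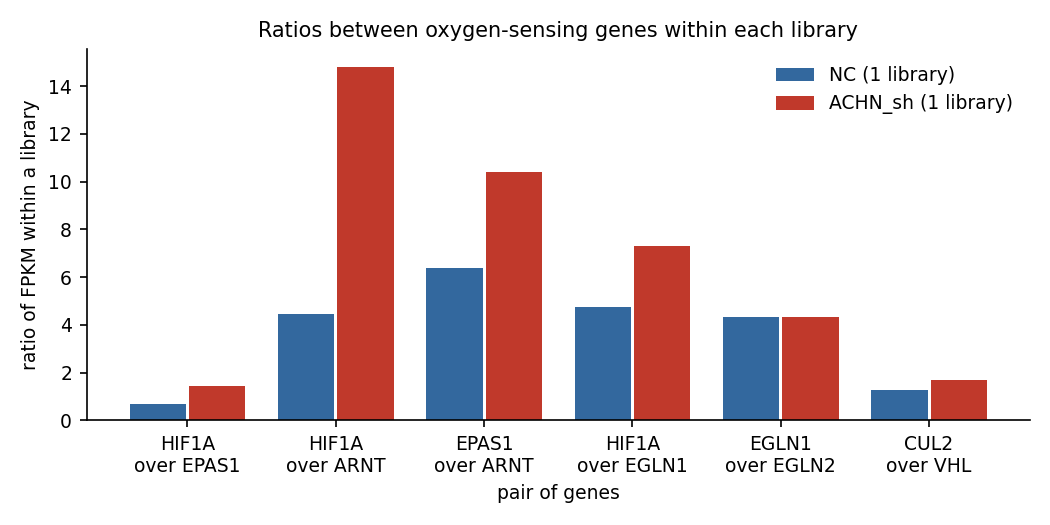
Ratio of FPKM between pairs of genes within the NC library and within the ACHN_sh library, bars from 0, 1 library each and no error bars. The ratio of HIF1A to ARNT was 4.47 and 14.8, whereas that of EGLN1 to EGLN2 was 4.35 and 4.31.

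The EGLN enzymes are the oxygen sensors proper, since they need oxygen, iron and 2-oxoglutarate to hydroxylate HIF α. EGLN1, held to be the main HIF hydroxylase in normal oxygen and itself a HIF target, was at 12.0 FPKM in the NC library and at 16.3 FPKM in the ACHN_sh library, 1.36-fold higher with a log2 change of 0.41. EGLN2 was at 2.75 FPKM in the NC library and at 3.77 FPKM in the ACHN_sh library, 1.37-fold higher with a log2 change of 0.35. Both were higher by nearly the same factor, and the share of EGLN1 in their sum was 81.3% in the NC library and 81.2% in the ACHN_sh library. Changes as high as these were common: 1505 of the 10702 genes had a higher change than EGLN1 and 1957 a higher change than EGLN2. EGLN1 (ENSG00000135766.8_2) lies on chromosome 1 from 231499497 to 231560790 on the minus strand.

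EGLN2 (ENSG00000269858.5_3), on chromosome 19 from 41304901 to 41314338 on the plus strand, overlaps the listed read-through gene RAB4B-EGLN2 on that strand, so the split of its reads is uncertain. RAB4B-EGLN2 was at 0.917 FPKM in the NC library and at 0.777 FPKM in the ACHN_sh library, and the sum of both rows had a log2 change of 0.25. HIF1A against EGLN1 was 4.74 in the NC library and 7.30 in the ACHN_sh library. The sum of both α genes against the sum of EGLN1 and EGLN2 was 9.38 and 10.1. HIF1AN hydroxylates HIF α on asparagine, which blocks the binding of the coactivators EP300 and CREBBP. Its level was 6.74 FPKM in the NC library and 6.89 FPKM in the ACHN_sh library, a log2 change of 0.03, and 93.3% of all genes had a larger change in size. HIF1AN (ENSG00000166135.13_2) lies on chromosome 10 from 102288829 to 102319755 on the plus strand, and the listed genes AL133352.1 and NDUFB8 overlap it on the other strand.

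VHL encodes the tumor suppressor that recognises hydroxylated HIF α. It was at 5.19 FPKM in the NC library and at 5.57 FPKM in the ACHN_sh library, a log2 change of 0.09, close to the median of 0.10 in its bin. VHL mRNA was thus detected in both libraries, and HIF1A mRNA stood at 10.9 times its level in the NC library and at 21.3 times in the ACHN_sh library. CUL2, the scaffold that joins VHL and the elongins to the RING subunit, was at 6.49 FPKM in the NC library and at 9.53 FPKM in the ACHN_sh library, 1.47-fold higher with a log2 change of 0.49. Of the 10702 genes 1089 had a higher change, and 65 of the 535 genes in the bin of CUL2 did. VHL (ENSG00000134086.7_2) lies on chromosome 3 from 10182692 to 10193904 on the plus strand, and CUL2 (ENSG00000108094.14_2) on chromosome 10 from 35297479 to 35379570 on the minus strand.

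By level the order was EPAS1, HIF1A, ARNT, EGLN1, HIF1AN, CUL2, VHL and EGLN2 in the NC library. In the ACHN_sh library it was HIF1A, EPAS1, EGLN1, CUL2, ARNT, HIF1AN, VHL and EGLN2. Without replicates, neighbours in these orders cannot be told apart by their spread. In all, 7 of the 8 genes were higher in the ACHN_sh library and 1 was lower, beside 57.3% higher among all genes. The median log2 change of the 8 genes was 0.22, beside 0.06 for all genes. Of the 8 genes 3 changed by no more than 0.1 in size, and 5 were higher after the median of all genes was subtracted. The study's methods pair a limit of 1.5 on the log2 scale with a p-value limit, using DESeq2. Here the limit of 1.5 was applied alone, to the log2 change of FPKM + 1. It was passed by 0 of the 8 genes, and by 0.635% of all genes. A limit of 1 was passed by 1 of the 8 genes, HIF1A, and by 2.5% of all genes, or 1.61% counting higher genes only. Subtracting the median of all genes from each change put HIF1A at 0.99, just under that lower limit. When both libraries were scaled to sum to 1000000, the median of all genes was 0.18 higher. The change of HIF1A was then 1.24 and that of ARNT -0.47. With mitochondrial genes left out of the sum, the median was only 0.01 higher, and these changes were 1.07 and -0.65.

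**Figure D3:**
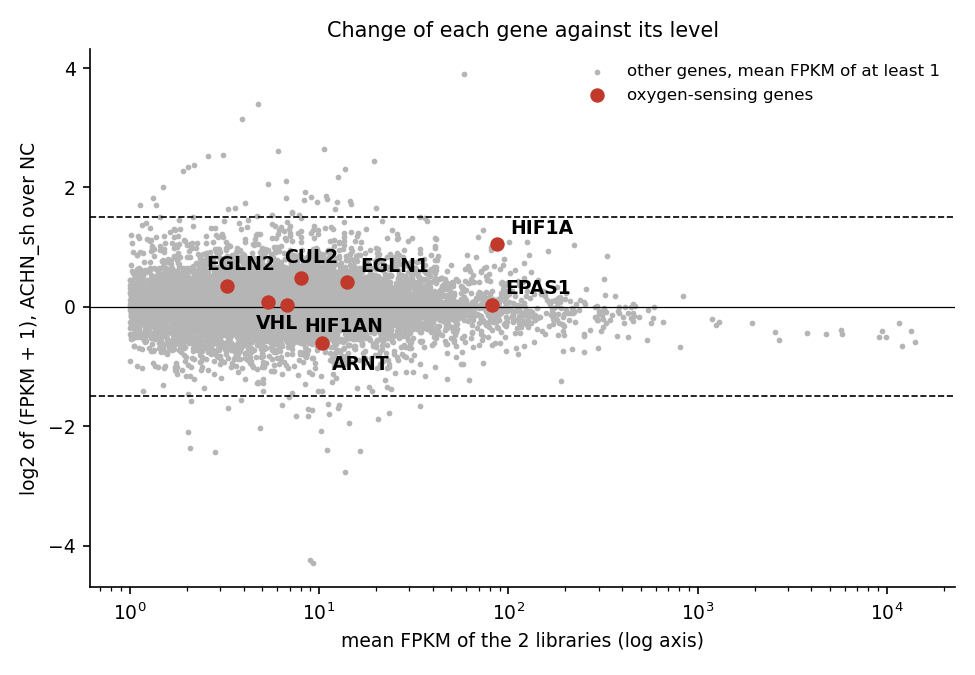
Log2 change of each gene (vertical) against its mean FPKM on a log axis, for the 10702 genes that averaged at least 1 FPKM (grey) and the 8 oxygen-sensing genes (red). Dashed lines mark a log2 change of 1.5 in either direction, and HIF1A at 1.05 lies at the upper edge of the genes of its level.

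The partners of VHL in its ligase were followed with a list of 13 genes, CUL2 among them, that covers the elongins, the RING subunit, the NEDD8 pathway and ubiquitin-conjugating enzymes. All 13 passed the filter on mean level, 11 were higher in the ACHN_sh library (84.6%, against 57.3% of all genes), and 0 passed 1.5. Their median log2 change was 0.20 against 0.06 for all genes. The elongin ELOC, which binds VHL directly, was at 6.46 FPKM in the NC library and at 9.73 FPKM in the ACHN_sh library, a log2 change of 0.52 close to that of CUL2. DCUN1D1, which promotes the attachment of NEDD8 to cullins, was at 3.04 and 4.29 FPKM, a log2 change of 0.39. Of the cullins, the scaffolds of this ligase family, 6 of 8 were higher (75.0%), and CUL2 had the highest change. CUL1 was lower in the ACHN_sh library, at 26.8 and 23.0 FPKM, and CUL3 was at 5.32 and 6.31 FPKM. The share of CUL2 in the summed cullin FPKM was 10.1% in the NC library and 14.5% in the ACHN_sh library.

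Coactivators and competitors of HIF were followed with 12 genes, of which 11 were kept, 8 were higher (72.7%, against 57.3% of all genes) and 0 passed 1.5, with a median log2 change of 0.12. CITED2, a HIF target that competes with HIF for EP300 and CREBBP, was at 85.6 FPKM in the NC library and at 54.4 FPKM in the ACHN_sh library, a log2 change of -0.64. It was the gene of this list with the lowest change. The coactivator NCOA3 was at 2.13 and 4.12 FPKM, a log2 change of 0.71, and its relative NCOA1 at 4.16 and 5.70 FPKM, a log2 change of 0.38. EP300 and CREBBP themselves had log2 changes of 0.07 and -0.16; these were added for context after their values were seen.

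Proteins that stabilise or destabilise HIF α apart from the hydroxylases made a list of 24 genes, of which 23 were kept and 14 were higher (60.9%, near the 57.3% of all genes), with a median log2 change of 0.14. MDM2, the ubiquitin ligase of p53, which also binds HIF-1α, was at 15.7 FPKM in the NC library and at 36.0 FPKM in the ACHN_sh library, a log2 change of 1.14. It was the 1 gene of the list past a limit of 1, beside 2.5% of all genes, or 1.61% counting higher genes only. WSB1, a ligase subunit that acts on VHL, was at 5.49 and 8.53 FPKM, a log2 change of 0.55. HSP90AA1, a chaperone of HIF-1α, was at 122 and 167 FPKM, a log2 change of 0.45.

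The genes below HIF were followed with a list of 50 known targets, of which 43 have a row and 39 were kept. Of these 39 genes, 29 were higher in the ACHN_sh library (74.4%, against 57.3% of all genes), and the median log2 change was 0.18. The highest changes were those of TFRC, the transferrin receptor, at 3.11 and 11.4 FPKM (1.59), PFKFB3, an activator of glycolysis, at 3.26 and 10.4 FPKM (1.41), and STC2, a secreted glycoprotein, at 4.20 and 11.3 FPKM (1.24). TFRC was the 1 gene of 39 past 1.5, beside 0.635% of all genes. Higher by more than 1 were 5 of the 39 genes, beside 1.61% of all genes, the other two being CCND1, the cyclin D1 gene, at 42.4 and 96.6 FPKM and LOX, a collagen cross-linking enzyme, at 18.4 and 40.5 FPKM, which were named after their values were seen. Some targets often used as a readout of HIF differed by less than 1 on the log2 scale. SLC2A1 was higher, at 13.2 and 15.1 FPKM. VEGFA at 2.42 and 1.73 FPKM, LDHA at 93.2 and 87.5 FPKM and BNIP3 at 17.7 and 11.0 FPKM were lower. BNIP3, with a log2 change of -0.64, had the lowest change of the 39 genes. These readout targets were also chosen after their values were seen. CA9, CA12, EPO, ALDOC, CXCR4 and SLC16A3 of the list, like EGLN3, have no row. In the ACHN_sh library 10 targets were lower, 0 of them by more than 1 on the log2 scale.

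**Figure D4:**
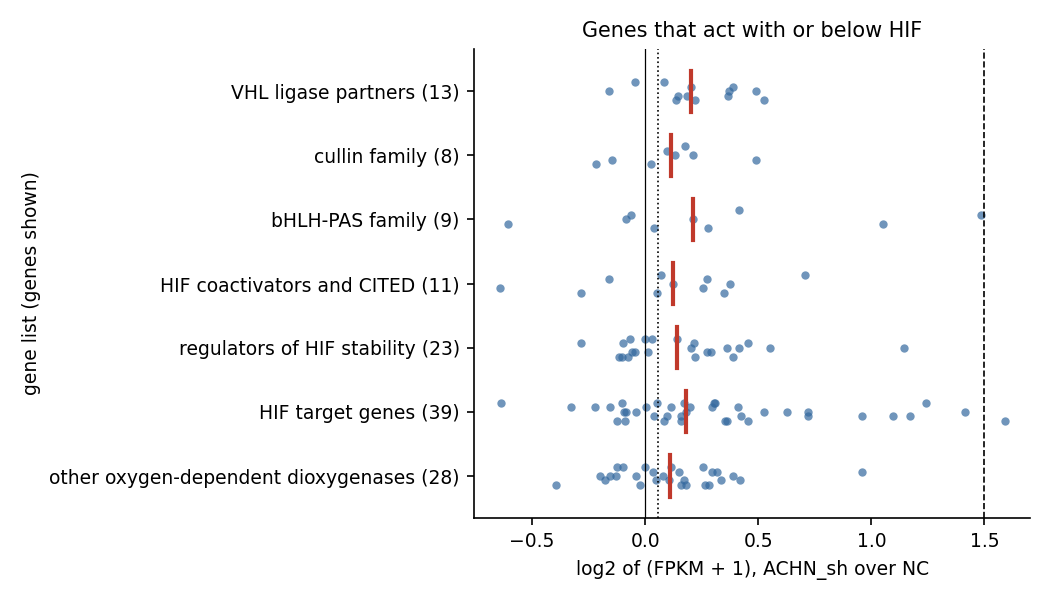
Log2 change of each gene kept (points) in 7 lists of genes that act with or below HIF, with the median of each list (red bar), the median of all genes (dotted line) and a log2 change of 1.5 (dashed line); genes in several lists are drawn in each. List medians lay between 0.11 and 0.21, and TFRC at 1.59 is the 1 point past the dashed line.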

How the data were processed

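Poly(A) RNA of 2 ACHN libraries, 1 per group, was sequenced from both ends in dUTP strand-marked libraries. The authors deposited FPKM values per gene, and the submitters' processing notes name cutadapt 1.9, HISAT2 2.0.4, StringTie 1.3.4d, DESeq2 and edgeR. The roles and settings of these tools, the strand setting and the genome build are not given in the sources used here. Gene positions are those of GENCODE genes on GRCh37. Each listed gene is above 0.5 FPKM in at least 1 library. Read depth is unknown, since FPKM does not keep it, and counting intervals were not computed.

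For each gene, (FPKM + 1) in ACHN_sh was divided by (FPKM + 1) in NC and the log2 taken, with a filter of a mean FPKM of at least 1. Where a symbol stands on several rows, the most abundant row was taken. Genes of like level were those in the same of 20 bins by mean FPKM. The genes named are the 8 listed genes, KIAA1429 and, from each list, the 3 with the largest change in size, and the text marks genes added after their values were seen. Genes and lists were chosen with earlier results of these data known. Of the list genes named, NCOA3, MDM2, HSP90AA1, CCND1, LOX, JMJD4 and CLOCK overlap a listed gene on the other strand. With the strand setting not given, reads of such pairs cannot be told apart here. Of the renal markers with a row only PAX8 and PAX2 are given, and the others are not reported here. The steps were run on simulated data with planted changes larger than those of the 8 listed genes. That run checks only whether large known changes are returned, and it cannot measure the spread between cultures. Alternatives were another pseudocount, centring, rescaling with and without mitochondrial genes, another limit, other filters, summed rows and the sum with overlapping genes. Python 3.11.15, NumPy 2.4.6, pandas 2.3.3 and matplotlib 3.10.9 were used.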

Additional observations from a re-analysis of the deposited data

How the results depend on the processing

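With 1 library per group, the values have no replicate error and the depth is unknown, so which differences exceed the spread between cultures was not tested. Over all settings run, the log2 change of HIF1A lay between 0.99 and 1.24, that of ARNT between -0.66 and -0.47, of CUL2 between 0.43 and 0.71, of EGLN1 between 0.35 and 0.61, of EGLN2 between 0.25 and 0.59 and of VHL between 0.03 and 0.27. EPAS1 and HIF1AN changed sign on centring, to -0.02 and -0.03. Ranks moved too: 153 of the 10702 genes had a higher change than HIF1A. That count was 266 with a pseudocount of 0.1, 224 after rescaling to a sum of 1000000 and 294 with no pseudocount. Below ARNT were 412 genes, against 550, 538 and 563 in the same settings. The setting with no pseudocount was chosen after seeing the data. No oxygen-sensing gene passed 1.5 under any setting, and 1 passed a limit of 1. The count of genes past 1.5 in the lists moved as follows: with a pseudocount of 0.1 it was 1 for the bHLH-PAS family, 2 for HIF targets and 1 for other dioxygenases, after rescaling to a sum of 1000000 it was 1, 3 and 1, and after rescaling without mitochondrial genes it was 1, 2 and 1, against 0, 1 and 0. A limit of 1 gave 2 genes of the bHLH-PAS family, 1 regulator of HIF stability and 5 HIF targets. A smaller pseudocount enlarges the changes of low genes in both directions by construction. Both rescalings raise all values before 1 is added, so the pseudocount weighs less there too. Scaling to a sum of 1000000 also raised the median of all genes by 0.18. How much each adds to these moves was not tested. Of all 10702 genes, 41 were higher and 27 lower past 1.5, against 112 and 60 with a pseudocount of 0.1, 133 and 32 after rescaling, 107 and 57 without mitochondrial genes, 172 and 96 with a limit of 1, and a mean FPKM of at least 5 left 6039 genes, of which 24 were higher and 20 lower. List medians kept their sign but not their size: they lay between 0.12 and 0.39 for HIF targets, 0.14 and 0.39 for VHL ligase partners, 0.06 and 0.31 for cullins, 0.15 and 0.42 for the bHLH-PAS family, 0.06 and 0.31 for coactivators, 0.08 and 0.33 for regulators of HIF stability and 0.05 and 0.30 for other dioxygenases, lowest on centring (for coactivators, with the filter at 5 FPKM) and highest after rescaling to a sum of 1000000. No paired analysis was possible because each group is a single library.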

Other observations

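Relatives of the HIF subunits in the bHLH-PAS family, transcription factors of oxygen, light and xenobiotic sensing, were followed with 16 genes, of which 11 have a row and 9 were kept. Of these 9 genes, HIF1A, EPAS1 and ARNT included, 6 were higher in the ACHN_sh library (66.7%, against 57.3% of all genes), with a median log2 change of 0.21. ARNTL2, a clock gene related to ARNT, was at 3.75 FPKM in the NC library and at 12.3 FPKM in the ACHN_sh library, a log2 change of 1.48, the highest in the family. The clock partner CLOCK was at 2.96 and 4.28 FPKM, and AHR, the aryl hydrocarbon receptor that also pairs with ARNT, at 5.28 and 6.62 FPKM; these 2 genes were named after their values were seen.

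Other enzymes that use oxygen and 2-oxoglutarate, among them histone demethylases and collagen hydroxylases, made a list of 32 genes, of which 28 were kept and 18 were higher (64.3%, against 57.3% of all genes), with a median log2 change of 0.11. JMJD4, a lysyl hydroxylase of the translation termination factor, was at 0.658 FPKM in the NC library and at 2.22 FPKM in the ACHN_sh library, a log2 change of 0.96 that rests on a low level. KDM6A, a histone demethylase, was at 1.62 and 2.51 FPKM. ALKBH5, the m6A demethylase of the same enzyme class, was lower in the ACHN_sh library, at 19.2 and 14.4 FPKM with a log2 change of -0.39.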
